A study of Mus musculus with 4 samples.

Results

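The interferon-stimulated genes were read in lymphoid-primed multipotent progenitors (LMPPs), early blood progenitors of mouse bone marrow that have high Flt3 and a lymphoid bias. The set was a list of 45 genes, chosen with earlier results of these data known. Each gene was taken from the probe sets whose platform symbol is exactly that gene, using the one with the highest mean over the 4 arrays. Of the 45, 43 had such a probe set, among 18193 genes on the array that did, and Isg15 and Ifi44 were not analysed here. A filter kept genes whose 4-array mean reached a log2 value of 5.69, the median of all probe-set means, and 40 of the 43 passed it, among 11196 genes tested. Stat2, Zbp1 and Cxcl10 lay below it.

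The 4 arrays came from 2 samples labelled wild type and 2 labelled Lyl1-null, of C57Bl/6 mice, 6 to 8 weeks old and not treated, whose marrow was sorted for absence of lineage markers, for c-Kit and Sca-1, and for high Flt3. Lyl1 is a transcription factor of the helix-loop-helix class that acts in blood progenitors, and the comparison asks which transcripts differ when it is missing. The labels point to an earlier description of the allele and do not say which part of Lyl1 it removes, whether loss is limited to blood, or whether a sample pooled animals. No label says that the samples of one genotype are from different animals. The p-values therefore reflect the spread among these 4 samples alone, which may in part be technical. Values are log2 expression after RMA, and n = 2 per group throughout.

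Interferons are secreted in response to viral nucleic acid and bind receptors that act through Janus kinases and STAT proteins. Type I interferon gives a complex with Stat2 and Irf9 that binds the interferon-stimulated response element (ISRE), and interferon gamma acts through the GAS element. The genes switched on include RNA sensors, blockers of viral replication, GTPases that attack the vacuoles of intracellular microbes, and the machinery of antigen presentation. Stem and progenitor cells are known to express part of this set without infection, and the sorting marker Sca-1 is itself an interferon-inducible protein.

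Promoter sequence shows the element that many of these genes share. Of 33 listed genes with a RefSeq promoter window of 300 bases (250 before and 50 after the start site, build GRCm38.p6), 19 (57.6%) held GAAANNGAAA or its reverse complement TTTCNNTTTC, the core of the ISRE, with overlapping matches counted. Of 27025 genes with such windows 3.99% held it, and of all 32851 windows 3.44%. The 160 bases directly before the start site are given for 4 genes, with the matches in capitals. Ifit1 and Ifit3 (chr19:34640729-34640888 and chr19:34583369-34583528, both plus strand) had lower values on both arrays labelled Lyl1-null than on either wild-type array, and Oas3 (chr5:120777660-120777819, minus strand) and Irgm1 (chr11:48871421-48871580, minus strand) overlapped with wild type.
Ifit1: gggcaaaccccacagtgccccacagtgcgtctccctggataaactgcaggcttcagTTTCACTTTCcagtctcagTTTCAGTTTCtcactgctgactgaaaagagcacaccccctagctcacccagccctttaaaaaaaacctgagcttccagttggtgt
Ifit3: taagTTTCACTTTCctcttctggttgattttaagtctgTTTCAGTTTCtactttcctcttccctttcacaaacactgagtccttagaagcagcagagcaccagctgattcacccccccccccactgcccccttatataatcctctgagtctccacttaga
Oas3: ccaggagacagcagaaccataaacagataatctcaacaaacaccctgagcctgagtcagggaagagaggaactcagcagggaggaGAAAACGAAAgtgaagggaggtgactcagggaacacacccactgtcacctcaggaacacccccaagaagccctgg
Irgm1: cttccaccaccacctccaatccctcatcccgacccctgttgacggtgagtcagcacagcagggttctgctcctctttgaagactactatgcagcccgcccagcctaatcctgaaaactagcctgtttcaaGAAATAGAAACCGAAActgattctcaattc

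The matches begin 104 and 85 bases before the start site in Ifit1, 156 and 122 in Ifit3, 75 in Oas3, and 30 and 24 in Irgm1, where they overlap. The GAS core TTCNNNGAA was in 12 of the 33 genes (36.4%), in 9.55% of all genes and in 8.30% of all windows. The median log2 difference was −0.24 over the 16 tested genes with the ISRE core and −0.075 over the 13 without it. For the GAS core it was −0.24 over 12 tested genes with it and −0.14 over 17 without. These letters describe the windows and show no binding.

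Lyl1 goes against one label. The libraries labelled Lyl1-null, replicates 1 and 2, are called null-labelled library 1 and null-labelled library 2 from here on. The only Lyl1 probe set read 12.34 and 12.29 in wild type, 5.14 in null-labelled library 1 and 10.32 in null-labelled library 2. The latter also differed in sex-linked transcripts, with Xist at 14.26 (5.81 to 6.30 elsewhere) and Eif2s3y at 8.44 (10.07 to 10.15 elsewhere), so the null-labelled libraries are not repeat measurements of one RNA sample. The median and sign count of the whole set are given for both together and for each apart. The gated receptors were present on every array, with Flt3 between 11.26 and 12.12 and Kit between 8.97 and 10.27, while Cd3e, which defines T cells, stayed between 6.07 and 6.25.

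Most interferon-stimulated genes had lower values in the null-labelled libraries, by small amounts. Of the 40 tested, 32 (80%) had a negative difference, against 56.9% of all genes tested. The median log2 difference, null-labelled minus wild type, was −0.24, against −0.047 over all genes. All genes were not matched to the members in signal, and null-labelled library 2 had a narrower spread of values (SD 2.34, against 2.44 to 2.48 elsewhere). With the 70th percentile as the filter, the median was −0.23 for the members and −0.085 for all genes. The split moved with scaling: it was 65% negative (all genes 44.1%) after quantile normalization and 87.5% (all genes 67%) after median centring, which moved the median of all genes to −0.12. In 20 of the 40 (50%) both of these libraries lay below both wild-type libraries, where 24.0% of all genes did, and in 1 (2.50%), Psmb8, both lay above, where 18.7% of all genes did. At least 1.5-fold lower were 4 of 40 (10%, against 5.39% of all genes), namely Iigp1, Mx1, Adar and Ifit1, and Adar was under 1.5-fold after quantile normalization (−0.51) and with the mean of its probe sets (−0.32). Ifit1 and Mx1 passed the filter only through their wild-type values. Among the other 38 tested genes, 30 were negative, 18 (47.4%) lay below wild type in both libraries and 2 (5.26%) were at least 1.5-fold lower. Over all 43 measured genes, without the filter, 35 were negative and 23 lay below wild type in both libraries.

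No member passed the test. In limma, with Benjamini-Hochberg adjustment over all 11196 genes, 0 of 40 reached an adjusted p of 0.05, where 1 gene in all (0.00893%) did. Lyl1 itself did not reach it, with a difference of −4.58 (SE 1.57, adjusted p = 0.644). Its null-labelled readings, 5.14 and 10.32, were far apart, so Lyl1 does not gauge the test for the members. With n = 2 per group, the count of 0 does not show that the members were unchanged. At an unadjusted p under 0.05 there were 6 lower members (15%, against 4.67% of all genes) and 0 higher ones (against 2.17%). Without Ifit1 and Mx1 the lower ones were 4 of 38 (10.5%). In bulk RNA, fewer cells with these transcripts and less transcript per cell cannot be told apart.

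The median difference of the set was similar in each null-labelled library, but its place among all genes was not. A difference of −0.19 was the 20th percentile of all genes in null-labelled library 1 and the 40th in null-labelled library 2. Null-labelled library 1, where Lyl1 was below the filter, had a median of −0.19 over the 40 genes, with 31 (77.5%) negative, against a median of −0.0086 and 51.7% negative over all genes. Null-labelled library 2 had a median of −0.20 with 33 (82.5%) negative, against −0.078 and 56.8%. Both are set against the same wild-type mean, so they are not independent of each other. Between the wild-type libraries, replicate 2 was higher in 23 of the 40, with a median gap of 0.036.

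**Figure D1:**
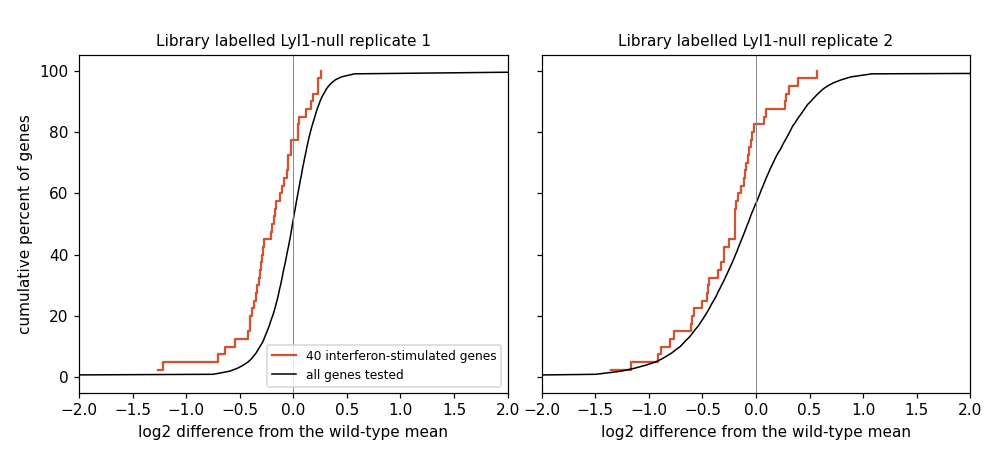
Cumulative percent of genes (vertical axis) against the log2 difference from the wild-type mean (horizontal axis) for each null-labelled library; the red step line is the 40 tested interferon-stimulated genes and the black line all 11196 genes. The red line lies left of the black one over most of its length in both panels, with medians of −0.19 and −0.20, and the black line is wider in null-labelled library 2.

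Markers of neutrophil granules had higher values in the null-labelled libraries. The summed signal of their 9 measured genes, in log2, was 9.38 and 8.92 in wild type and 10.91 and 10.65 in the null-labelled libraries, and 5 of the 9, S100a9, Lcn2, Mmp8, Mmp9 and Cd177, lay below the filter. The 4 tested, Ngp, Camp, Ltf and S100a8, had positive differences, none past the threshold. Ltf read 4.93 and 5.10 in wild type and 6.77 and 6.19 in the null-labelled libraries. It passed the filter only through the latter, so its sign was fixed by the filter. The other differences lay between 1.64 (S100a8) and 2.0 (Ngp). Markers of plasmacytoid dendritic cells, strong interferon producers, summed to 11.31 and 11.38 in wild type and 11.41 and 11.05 in the other group, with 3 of 6 tested negative. Siglech, which defines these cells, read 5.75 and 5.93 in wild type and 5.95 and 6.17 in the null-labelled libraries, higher in both, whereas Tcf4, their defining transcription factor, was lower in both (−0.45). Over the 6 tested the median was −0.16. Markers of mature T and NK cells summed to 11.51 and 11.46 in wild type and 11.86 and 11.70 in the null-labelled libraries, with 7 of 12 below the filter. Of the 5 tested, 4 were positive, with a median of 0.33. Nkg7, between 11.18 and 11.66, made up most of the sum. Klrd1 was the only negative one, lower in both null-labelled libraries (−0.76). The gate and lymphoid-primed markers had 6 of 8 negative, where 56.9% of all genes were, and a median of −0.49. Cd48 (−1.03) and Kit (−0.90) were lowest, whereas the lymphoid genes Il7r (0.65) and Rag1 (0.29) were positive and Dntt differed by −0.059. Dendritic cell and macrophage markers had 5 of 11 tested negative, with a median of 0.018. Mature B and plasma cell markers had 1 of 5 negative, with a median of 0.14. The part of these in the interferon-stimulated genes was not tested.

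**Figure D2:**
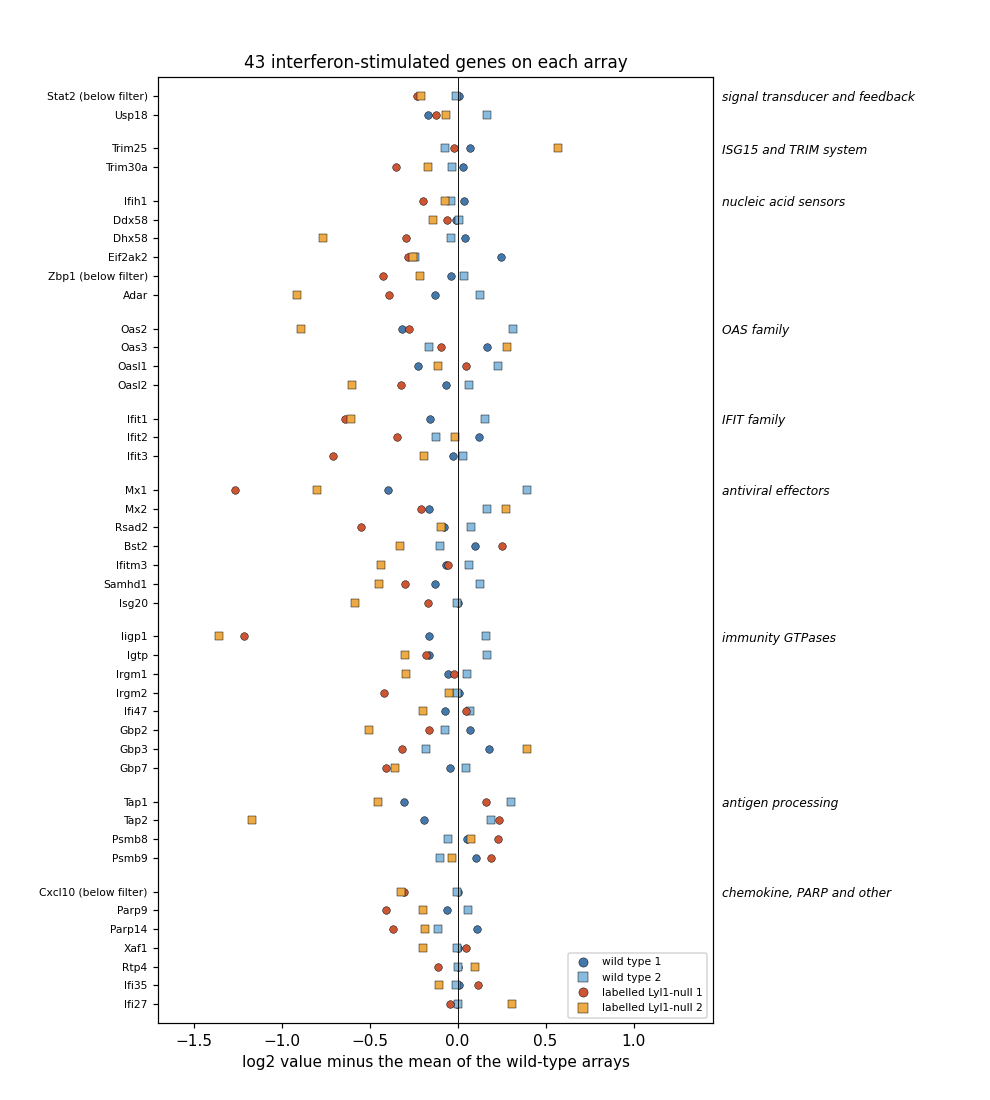
Each measured interferon-stimulated gene (rows, grouped by role) on each array, as the log2 value minus the mean of the wild-type arrays (horizontal axis); blue marks are wild type, red and orange the null-labelled libraries 1 and 2. Iigp1 and Mx1 lie farthest left, all nucleic acid sensors have both red and orange marks left of both blue ones, and the 4 antigen-processing genes do not.

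The immunity GTPases were lower on average, led by Iigp1. Iigp1, which damages the vacuoles that shelter intracellular parasites, read 8.60 and 8.92 in wild type and 7.54 and 7.40 in the null-labelled libraries 1 and 2. Both of the latter were more than 1 log2 unit below either wild-type library. The difference was −1.28 (SE 0.19), or 2.44-fold lower, with an unadjusted p of 6.59e-04 and an adjusted p of 0.284. Its second probe set read 7.57 and 7.95 in wild type and 7.0 and 6.51 in the others, again without overlap. Without null-labelled library 2 the difference was −1.21, and without null-labelled library 1 it was −1.35. The latter value rests on the library in which Lyl1 read 10.32. Over all alternatives the difference ranged from −1.45 to −1.12.

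Gbp7, a guanylate-binding protein that is induced by interferon gamma, read 9.23 and 9.32 in wild type and 8.87 and 8.92 in the null-labelled libraries. The groups did not overlap, and the difference was −0.38 (SE 0.16, adjusted p = 0.644). Its second probe set overlapped, at 9.03 and 9.23 against 9.16 and 8.67. Gbp2 differed by −0.33 without overlap, whereas Gbp3, of the same family, differed by −0.31 in null-labelled library 1 and 0.39 in null-labelled library 2. Of the immunity-related GTPases that guard host membranes, Igtp differed by −0.24 and Irgm2 by −0.23, both without overlap. Irgm1 (−0.16) and Ifi47 (−0.074) overlapped. In all, 7 of these 8 genes were negative and 5 lay below wild type in both libraries, where 56.9% and 24.0% of all genes did.

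Nucleic acid sensors lay below wild type in both libraries for each of the 5 genes tested, where 24.0% of all genes did. The difference was under 2 SE in 3 of the 5. Adar edits adenosines in double-stranded RNA and so limits its detection as foreign. It read 8.47 and 8.72 in wild type and 8.21 and 7.68 in the null-labelled libraries. The lowest value was in null-labelled library 2. The difference was −0.65 (SE 0.23, adjusted p = 0.644). Its other probe sets disagreed, with 7.60 and 7.88 against 7.77 and 7.99 in one and 6.71 and 7.11 against 6.76 and 6.13 in the other, so the direction of Adar depends on the probe set.

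Dhx58, the LGP2 helicase that tunes the RNA sensors, read 9.33 and 9.25 in wild type and 9.0 and 8.53 in the null-labelled libraries. These were lower in both, most in null-labelled library 2, with a difference of −0.53 (SE 0.21, adjusted p = 0.644). The sensors proper had smaller differences in the chosen probe sets. Ifih1, which encodes MDA5, differed by −0.14 (SE 0.16), and Ddx58, which encodes RIG-I, by −0.10 (SE 0.16), or 0.031 after quantile normalization. The nearest Ifih1 readings were 9.34 in null-labelled library 2 and 9.38 in wild-type replicate 2. A second Ddx58 probe set read 7.06 and 7.18 in wild type and 6.68 and 6.63 in the null-labelled libraries (−0.46), lower in both. The kinase gene Eif2ak2, whose product PKR halts translation on double-stranded RNA, differed by −0.27 (SE 0.21). It read 7.49 and 7.0 in wild type and 6.97 and 6.99 in the null-labelled libraries, so the lower wild-type library was almost level with them. Zbp1, a sensor of Z-form nucleic acid, was below the filter, at 5.73 and 5.80 in wild type and 5.34 and 5.55 in the others.

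The IFIT proteins bind viral RNA ends. Ifit1 read 6.06 and 6.36 in wild type and 5.57 and 5.60 in the null-labelled libraries. Both of the latter were under the filter of 5.69. The difference of the values as measured was −0.62 (SE 0.18, adjusted p = 0.644), with the gene above the filter only through wild type. Ifit3 read 7.44 and 7.50 in wild type and 6.77 and 7.28 in the others, without overlap, and differed by −0.45 (SE 0.22, adjusted p = 0.644). Null-labelled library 1 gave most of it. Ifit2 (−0.18, SE 0.20) overlapped. All 3 were negative in both libraries, where 51.7% of all genes were in null-labelled library 1 and 56.8% in null-labelled library 2.

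Among the blockers of viral replication, Mx1 had the largest difference. Mx1 is a dynamin-like GTPase against influenza viruses whose allele in common inbred mouse strains, C57BL/6 among them, lacks internal exons. It read 6.27 and 7.07 in wild type and 5.40 and 5.87 in the null-labelled libraries. The groups did not overlap, but the wild-type libraries were 0.79 apart and the lowest value was under the filter. The difference of the values as measured was −1.03 (SE 0.32, adjusted p = 0.644), and the mean of the null-labelled libraries, 5.64, was under the filter too. Leaving out the lower wild-type library made it −1.43, and leaving out the higher one made it −0.64.

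Samhd1, which depletes the nucleotides a virus needs, read 10.18 and 10.44 in wild type and 10.01 and 9.87 in the null-labelled libraries, lower without overlap (−0.37, SE 0.18, adjusted p = 0.644). The exonuclease gene Isg20 read 9.87 in both wild-type libraries and 9.70 and 9.29 in the others (−0.37, SE 0.20, adjusted p = 0.644). Rsad2, the viperin gene, differed by −0.32 without overlap, though null-labelled library 2 (10.48) was close to wild-type replicate 1 (10.50). Its second probe set above the filter, at 7.35 and 7.38 against 6.70 and 6.43, was lower in both libraries too. Ifitm3, which blocks fusion of viral envelopes, differed by −0.25 and overlapped. Bst2, which encodes tetherin, read 11.64 and 11.43 in wild type and 11.79 and 11.20 in the others, on either side of wild type, and Mx2 did the same (0.034, or −0.041 after median centring). Of these 7 genes 6 were negative and 4 lay below wild type in both libraries, where 56.9% and 24.0% of all genes did.

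The oligoadenylate synthetase family, whose enzymatically active members activate RNase L, was mixed. Oasl2 read 7.82 and 7.95 in wild type and 7.56 and 7.28 in the null-labelled libraries, without overlap (−0.46, SE 0.18, adjusted p = 0.644). Oas2 read 8.41 and 9.04 in wild type and 8.45 and 7.83 in the others. Null-labelled library 1 lay between the wild-type ones, and the difference of −0.58 (SE 0.31, adjusted p = 0.644) was under 2 SE. Oas3 (0.093) and Oasl1 (−0.031) overlapped.

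**Figure D3:**
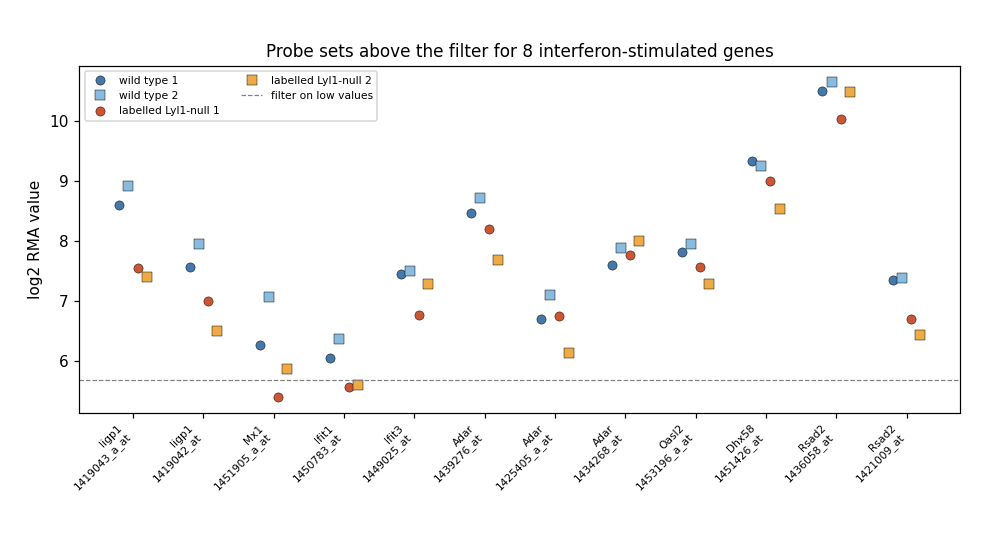
Log2 RMA values (vertical axis) of all probe sets above the filter for 8 interferon-stimulated genes on the 4 arrays; the dashed line is the filter at 5.69. Both Iigp1 probe sets separate the groups, the 3 Adar probe sets do not share a direction, and Ifit1 in the null-labelled libraries sits just under the filter.

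Antigen-processing genes differed between the null-labelled libraries. Psmb8 and Psmb9 encode subunits of the immunoproteasome, and Tap1 and Tap2 the transporter that carries its peptides. Psmb8 read 12.86 and 12.75 in wild type and 13.04 and 12.88 in the null-labelled libraries, above wild type in both (0.15, SE 0.16). Psmb9 differed by 0.077 and Tap1 by −0.15, both with overlap. The promoter windows of these 2 genes overlap by 275 bases on opposite strands. Tap2 read 11.05 and 11.43 in wild type, 11.47 in null-labelled library 1 and 10.07 in null-labelled library 2. Its difference of −0.47 (SE 0.46, adjusted p = 0.722) therefore rested on 1 library. In null-labelled library 1 all 4 genes were above the wild-type mean, with a median of 0.21, and in null-labelled library 2 the median was −0.24.

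Of the ISG15 and TRIM system and the remaining genes, Trim30a differed by −0.26 and lay below wild type in both libraries. Trim25, a ubiquitin ligase that activates RIG-I, read 13.40 and 13.26 in wild type, 13.31 in null-labelled library 1 and 13.90 in null-labelled library 2. Parp9, a macrodomain protein of the ADP-ribosyltransferase family, read 10.25 and 10.38 in wild type and 9.91 and 10.12 in the null-labelled libraries, without overlap (−0.30, SE 0.17, adjusted p = 0.644). Parp14 (−0.28) did not overlap either. Xaf1 (−0.075), Rtp4 (−0.0071), Ifi35 (0.0044) and Ifi27 (0.13) each had the 2 null-labelled libraries on both sides of the wild-type mean. The chemokine gene Cxcl10 was below the filter, at 5.74 in both wild-type libraries and 5.44 and 5.42 in the others.

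The mediators of the response had small differences. Stat2 was below the filter, with 5.74 and 5.72 in wild type and 5.50 and 5.52 in the null-labelled libraries. Usp18, which strips ISG15 from proteins and silences the type I receptor, read 7.74 and 8.07 in wild type and 7.78 and 7.84 in the others, inside the wild-type range (−0.095, SE 0.18).

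Probe sets that were not chosen give a partial check on the same arrays. Of 20 members with several, 16 had 21 further probe sets above the filter. Of these 21, 13 were negative, 15 had the sign of the chosen one and 6 the opposite sign, in Adar, Ifi27, Ifi35, Rtp4, Samhd1 and Xaf1. Their median difference was −0.29.

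Genes upstream of the set showed no shared direction. All 9 interferon genes measured lay below the filter, with readings between 2.97 and 5.88 over the arrays. Of 9 tested receptor and JAK-STAT genes 5 were negative, with a median of −0.12. Ifngr2, the signalling chain of the interferon gamma receptor, read 8.99 and 8.71 in wild type and 8.12 and 7.88 in the null-labelled libraries. Both were below both wild-type libraries, with a difference of −0.85 (SE 0.19, unadjusted p = 0.00525, adjusted p = 0.619). Its partner Ifngr1 differed by 0.023 (SE 0.20). Of the type I receptor chains, Ifnar2 differed by 0.060 (SE 0.26), and Ifnar1 by −0.45 (SE 0.36), which came from null-labelled library 2 alone (−0.96, against 0.061 in the other). Irf9 differed by −0.19 (SE 0.23) and the kinase gene Jak2 by −0.33 (SE 0.17).

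The interferon regulatory factors had 4 of 8 negative, with a median of −0.050. Irf7, which amplifies type I interferon and is itself interferon-inducible, read 8.15 and 8.78 in wild type and 8.10 and 7.26 in the null-labelled libraries. The groups did not overlap, though null-labelled library 1 was close to wild-type replicate 1, and the difference was −0.79 (SE 0.35, adjusted p = 0.644). Irf2bp1, a binding partner of Irf2, differed by −0.21 (SE 0.18). Of 8 sensing adaptors and Toll-like receptors 5 were negative, with Tlr7, a receptor for single-stranded RNA, at −0.52 (SE 0.18) and Tbk1, the kinase that activates Irf3, at −0.33 (SE 0.17). Of 12 inhibitors of the pathway 5 were negative, with a median of 0.056, and the feedback inhibitor Socs1 differed by −0.10 (SE 0.16). Socs3 differed by 0.46 and Ptpn2 by −0.32.

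A second list of interferon-inducible genes, outside the 45, was also chosen with earlier results known. It had 45 of 57 negative (78.9%, against 56.9% of all genes) with a median of −0.20. Of the 57, 22 (38.6%, against 24.0%) lay below wild type in both libraries. Ms4a6b, a member of a family of membrane proteins, read 8.67 and 8.83 in wild type and 8.02 and 7.94 in the others (−0.77, SE 0.16, adjusted p = 0.601). Ifitm1 read 11.31 and 11.17 in wild type and 10.73 and 10.55 in the others (−0.60, SE 0.17, adjusted p = 0.644). Both were lower without overlap. Of all 94 pathway genes outside the set, limma called 0. At an unadjusted p under 0.05 it had 4 lower (4.26%, near the 4.67% of all genes) and 0 higher.

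**Figure D4:**
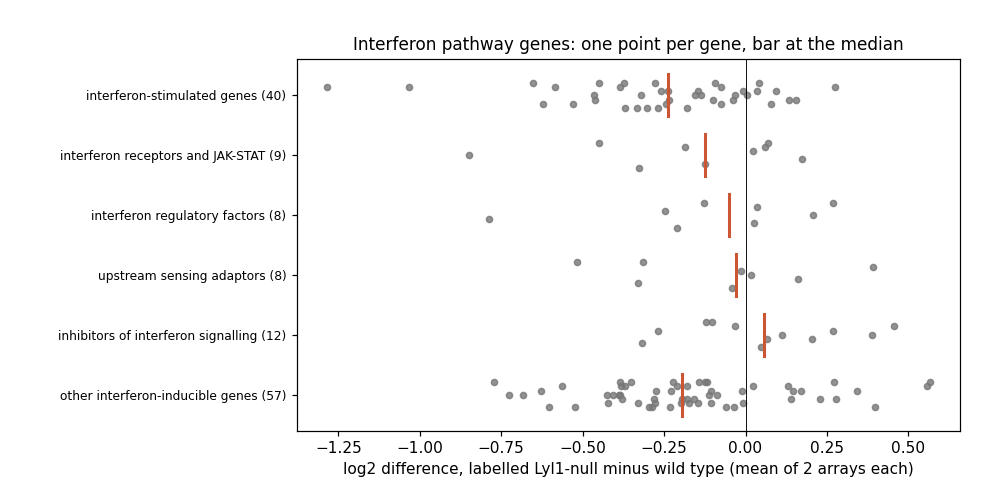
Log2 difference, null-labelled minus wild type (horizontal axis), for each tested gene of the interferon-stimulated set and of 5 pathway lists (rows, with the number of genes); red bars are medians. The median was −0.24 for the interferon-stimulated genes and −0.20 for the other inducible genes, and nearer to 0 for receptors, regulatory factors, adaptors and inhibitors.

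The calls changed with null-labelled library 1 left out. Without it, limma called 4 members lower, Iigp1, Tap2, Adar and Dhx58, and 0 higher. That share of 10% lies near the 10.8% of all genes called lower in that fit, where 3.94% were called higher. The median difference of the 40 members in that fit was −0.20, against −0.078 over all genes. Those 40 include Ifit1 and Mx1, which passed the filter only through wild type. Of the 94 pathway genes that fit called 13 lower (13.8%) and 4 higher (4.26%), near the shares over all genes. Without null-labelled library 2 it called 0 of 40 members, where 0.196% of all genes were called. At an unadjusted p under 0.05 there were 8 lower members and 0 higher ones, where 4.42% and 2.32% of all genes were.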

How the data were processed

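The deposited values are on a log2 scale after RMA, which the submitters' processing notes name. The version of RMA was not given in the sources used here, nor is the set of arrays it was run on. The values were used as deposited for 4 arrays. Symbols came from the platform annotation: of 45037 probe sets, 34945 carried 1 gene symbol, 932 carried several and 9160 were not listed. Probe sets with several symbols or none were left out.

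Groups were compared with limma 3.58.1 under R 4.3.3 (lmFit and eBayes, two-sided, Benjamini-Hochberg adjustment over 11196 genes, threshold 0.05). The fit was run on simulated data with known changes, all larger than the differences of most members. Differences are null-labelled minus wild type. No list was tested as a set. Precision is limited by there being only 4 arrays. Members and lists were chosen with earlier results of these data known. Values on every array were given for the 12 members with the smallest unadjusted p, for a fixed set of others and where probe sets or libraries disagreed. From each pathway list, members with the smallest p and a fixed set were named. Alternatives concerned the filter, probe-set choice, scaling, prior, array weights, replicate block, threshold and each library left out.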

Additional observations from a re-analysis of the deposited data

How the results depend on the processing

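Over 16 alternatives, 23 of the 40 tested interferon-stimulated genes stayed negative and 1, Psmb8, stayed positive wherever they could be fitted, and the other 16 changed sign in at least 1. The count of members called was 0 in each alternative except without null-labelled library 1, so it ranged from 0 to 4 with a library left out, and that of pathway genes from 0 to 17. The median of the members was −0.13 with quantile normalization (65% of members negative, against 44.1% of all genes) and −0.31 with median centring (87.5% against 67%), and between −0.24 and −0.19 with a library left out. The 1 gene called in all became 4 without the filter, 0 with the mean of probe sets, 2 with all probe sets tested, with quantile normalization and with median centring, 4 with a trended prior, 5 with array weights, 6 at a threshold of 0.10, 3 with the replicate block, and 1 to 1652 with a library left out. Deviations of same-numbered libraries from their group means correlated at −0.407 over genes. With 2 libraries per group this is a single contrast, so it cannot show whether the numbers pair the samples. The replicate block changed no other call. A crossed block, chosen after seeing the data, called 1 gene in all and 0 members.

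With the mean of probe sets the sign turned for Xaf1 (0.10), Rtp4 (0.027), Ifi35 (−0.064), Ifi27 (−0.090) and Ifnar2 (−0.025). With quantile normalization it turned for Usp18 (0.059), Ddx58 (0.031), Oasl1 (0.11), Bst2 (0.0039), Xaf1 (0.075) and Rtp4 (0.075), and with median centring for Mx2 (−0.041), Gbp3 (−0.035), Ifi35 (−0.071), Ifnar2 (−0.015) and Ifngr1 (−0.052). With each library left out, differences ranged from −0.26 to 0.072 for Usp18, −0.021 to 0.57 for Trim25, −0.092 to 0.28 for Oas3, −0.26 to 0.20 for Oasl1, −0.21 to 0.27 for Mx2, −0.33 to 0.25 for Bst2, −0.19 to 0.045 for Ifi47, −0.31 to 0.39 for Gbp3, −0.45 to 0.16 for Tap1, −1.17 to 0.23 for Tap2, −0.034 to 0.19 for Psmb9, −0.20 to 0.047 for Xaf1, −0.11 to 0.096 for Rtp4, −0.10 to 0.11 for Ifi35, −0.046 to 0.31 for Ifi27, −0.96 to 0.061 for Ifnar1, −0.29 to 0.41 for Ifnar2, −0.15 to 0.20 for Ifngr1 and −0.39 to 0.019 for Irf9. A fit without 1 library assumes that the single library left in its group varies like the other group. The cause of these changes was not tested. Signal over background limits Ifit1, Mx1, Stat2, Zbp1 and Cxcl10, which lay at or under the filter on some arrays.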
